A study of Mus musculus with 6 samples.

Results

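The genes described here carry transforming growth factor beta (TGF-beta) signalling: the ligand gene Tgfb1, the receptor genes Tgfbr1 and Tgfbr2, the Smad genes Smad2, Smad3, Smad4 and Smad7, and the corepressor genes Ski and Skil. The 9 genes were chosen by their symbols, and all 9 are among the 14148 genes of the deposited table. They were compared between lipid droplet-high (LD-high) and lipid droplet-low (LD-low) hippocampal microglia, the brain's own macrophages. The mice were male C57BL/6 animals aged 18 months. Live cells positive for CD11b with low CD45 were stained with BODIPY, a dye for neutral lipid, and sorted into BODIPY-high (LD-high) and BODIPY-low (LD-low) cells. Each group had 3 libraries, each from the pooled hippocampi of 3 mice and about 10000 sorted cells. No transgene, drug or diet is given in the labels for either group, and both groups share age, sex and strain.

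TGF-beta is secreted in a latent form and, once freed, binds the type II receptor encoded by Tgfbr2, which phosphorylates the type I receptor encoded by Tgfbr1. The type I receptor then phosphorylates Smad2 and Smad3, which enter the nucleus with the common partner Smad4 and bind DNA. Smad7 blocks the type I receptor, and Ski and SnoN, the product of Skil, hold Smad complexes in a repressed state. Microglia need this signal in the mouse brain to keep their mature gene programme.

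The upstream windows of the receptor genes are shown because Tgfbr1 and the ratio of the receptor genes did not overlap between the fractions. Neither passed its test, as given further on. RefSeq windows were matched for 5 of the 9 genes: Tgfb1, Tgfbr1, Tgfbr2, Smad3 and Ski. Both windows run from 250 bases before to 50 bases after a RefSeq start in GRCm38.p6, written 5′ to 3′ on the gene's strand. Tgfbr1 lies at chr4:47352972-47353271 on the plus strand, where RefSeq has a second start that is not shown, and Tgfbr2 at chr9:116175314-116175613 on the minus strand. Capitals mark CAGAC or GTCTG, the letters that Smad proteins bind, and GGGCGG or CCGCCC, the letters of the GC box.
Tgfbr1: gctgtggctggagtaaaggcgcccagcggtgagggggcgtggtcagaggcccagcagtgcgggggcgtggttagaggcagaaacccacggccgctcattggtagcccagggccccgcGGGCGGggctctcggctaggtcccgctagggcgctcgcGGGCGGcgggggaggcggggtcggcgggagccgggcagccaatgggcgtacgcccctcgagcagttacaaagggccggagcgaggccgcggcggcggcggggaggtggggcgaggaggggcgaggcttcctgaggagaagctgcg
Tgfbr2: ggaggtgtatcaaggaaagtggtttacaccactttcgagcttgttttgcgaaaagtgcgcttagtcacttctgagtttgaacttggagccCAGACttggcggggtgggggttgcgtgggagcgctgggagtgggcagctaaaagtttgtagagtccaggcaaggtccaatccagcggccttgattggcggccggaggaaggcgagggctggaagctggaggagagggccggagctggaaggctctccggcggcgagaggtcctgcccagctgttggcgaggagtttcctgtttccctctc
The Tgfbr1 window held 2 GC boxes, at bases 118 to 123 and 156 to 161 counted from its first base, and 0 CAGAC or GTCTG. The Tgfbr2 window held 1 CAGAC, at bases 91 to 95, and 0 GC boxes. Over 32851 RefSeq windows of this length, 49.6% held CAGAC or GTCTG and 35.7% held a GC box, each on either strand and with no overlap between the motifs. The second Tgfbr1 window held 1 CAGAC and 0 GC boxes. The windows of Tgfb1, Smad3 and Ski held 6, 2 and 6 GC boxes and 0 CAGAC or GTCTG. The matches are letters and no evidence of binding.

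The libraries held 15895576 to 38489448 reads in genes. Values are normalized counts, that is, reads divided by 1 size factor per library. All 9 microglial marker genes were listed, and their summed level was 1402282 to 1620683 normalized counts in LD-high libraries and 1444792 to 1691547 in LD-low libraries. Markers of some other cells differed between the fractions. The 6 listed of 7 neutrophil markers were at 0 reads in all LD-high libraries and summed to 1220 to 4523 normalized counts in LD-low libraries. The 7 choroid plexus markers summed to 712 to 2211 in LD-high libraries and 118 to 740 in LD-low libraries, and 2 of them passed the test upward. Oligodendrocyte markers summed to 2083 to 2262 in LD-high and 1702 to 1925 in LD-low libraries, and astrocyte markers to 7974 to 8839 in LD-high and 6480 to 7837 in LD-low libraries, with 0 genes of either list called in limma. Only 2 of the 6 astrocyte markers were tested, and their median log2 change was -0.11, below 0 unlike the sum. Border macrophage and monocyte markers summed to 294 to 513 in LD-high and 368 to 697 in LD-low libraries. In the same order, endothelial and mural markers summed to 1302 to 1686 and 1105 to 1516, and neuron markers to 21.7 to 29.8 and 8.4 to 27.1. These lists overlapped between the fractions, with 0 genes called. The median log2 change was -0.52 over 8 tested border macrophage and monocyte markers and -0.72 over 4 tested endothelial and mural markers. For the 1 tested neuron marker it was 0.49.

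Tgfbr1, the type I receptor gene (chromosome 4, 47366094 to 47427803 in NCBIM37, the mm9 build), had the largest difference of the 9 genes. It had 81083, 69601 and 72552 normalized counts in LD-high replicates 1, 2 and 3, against 69115, 53531 and 64664 in LD-low replicates 1, 2 and 3. All LD-high libraries lay above all LD-low libraries, though LD-high replicate 2 stood just above LD-low replicate 1. The means were 74412 ± 5963 in LD-high and 62437 ± 8027 in LD-low libraries (SD, n = 3 each). The log2 change was 0.26 ± 0.10 (SE), with a 95% interval of 0.05 to 0.46, a 1.04-fold to 1.38-fold higher level. The unadjusted p was 0.0173 in limma, and the p adjusted over all 11624 tested genes was 0.157, so Tgfbr1 did not pass the threshold of 0.05. In bulk libraries fewer cells that express a gene cannot be told apart from less of its RNA per cell. LD-low replicate 2, the lowest library, weighed on the size: without it the log2 change was 0.15, and without LD-low replicate 1 it was 0.34 with an adjusted p of 0.0501. With the replicate number as a block the adjusted p was 0.0081 (limma), but no label states that equal numbers pair the libraries.

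Tgfbr2, the type II receptor gene (chromosome 9, 115993415 to 116084383), had 34151, 29779 and 29123 normalized counts in LD-high replicates 1, 2 and 3, against 33025, 28129 and 29622 in LD-low replicates 1, 2 and 3. The groups overlapped throughout, and replicate 1 was the highest in both. Its log2 change was 0.04 ± 0.08, with a 95% interval of -0.14 to 0.21 and an adjusted p of 0.860 (limma).

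The ratio of the receptor genes did not overlap between the groups. Tgfbr2 alone had a log2 change of 0.04 and Tgfbr1 of 0.26, so the ratio mostly restates the difference of Tgfbr1. Within each library, Tgfbr2 divided by Tgfbr1 was 0.421, 0.428 and 0.401 in LD-high replicates 1, 2 and 3, against 0.478, 0.525 and 0.458 in LD-low replicates 1, 2 and 3. Each LD-high library had less Tgfbr2 per Tgfbr1 than any LD-low library. Such a ratio does not depend on the library's size factor, and since it is not divided by gene length it compares libraries, not the genes. The difference was -0.22 on the log2 scale, with mean log2 ratios of -1.26 ± 0.05 in LD-high and -1.04 ± 0.10 in LD-low libraries (SD, n = 3 each). The exact permutation test gave a 2-sided p of 0.1, the smallest that 3 libraries against 3 allow, and 0.2 when adjusted over the 4 ratios tested. The share of other gene pairs whose ratio does not overlap was not computed. For single genes it was 24.3% of all tested genes in either direction.

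Tgfb1, the ligand gene (chromosome 7, 26472021 to 26490096), had 8255, 7042 and 7124 normalized counts in LD-high replicates 1, 2 and 3, against 7948, 7150 and 7473 in LD-low replicates 1, 2 and 3. The LD-high libraries held both the highest and the lowest value. Its log2 change was -0.01 ± 0.08, with a 95% interval of -0.17 to 0.15 (adjusted p 0.952, limma).

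**Figure D1:**
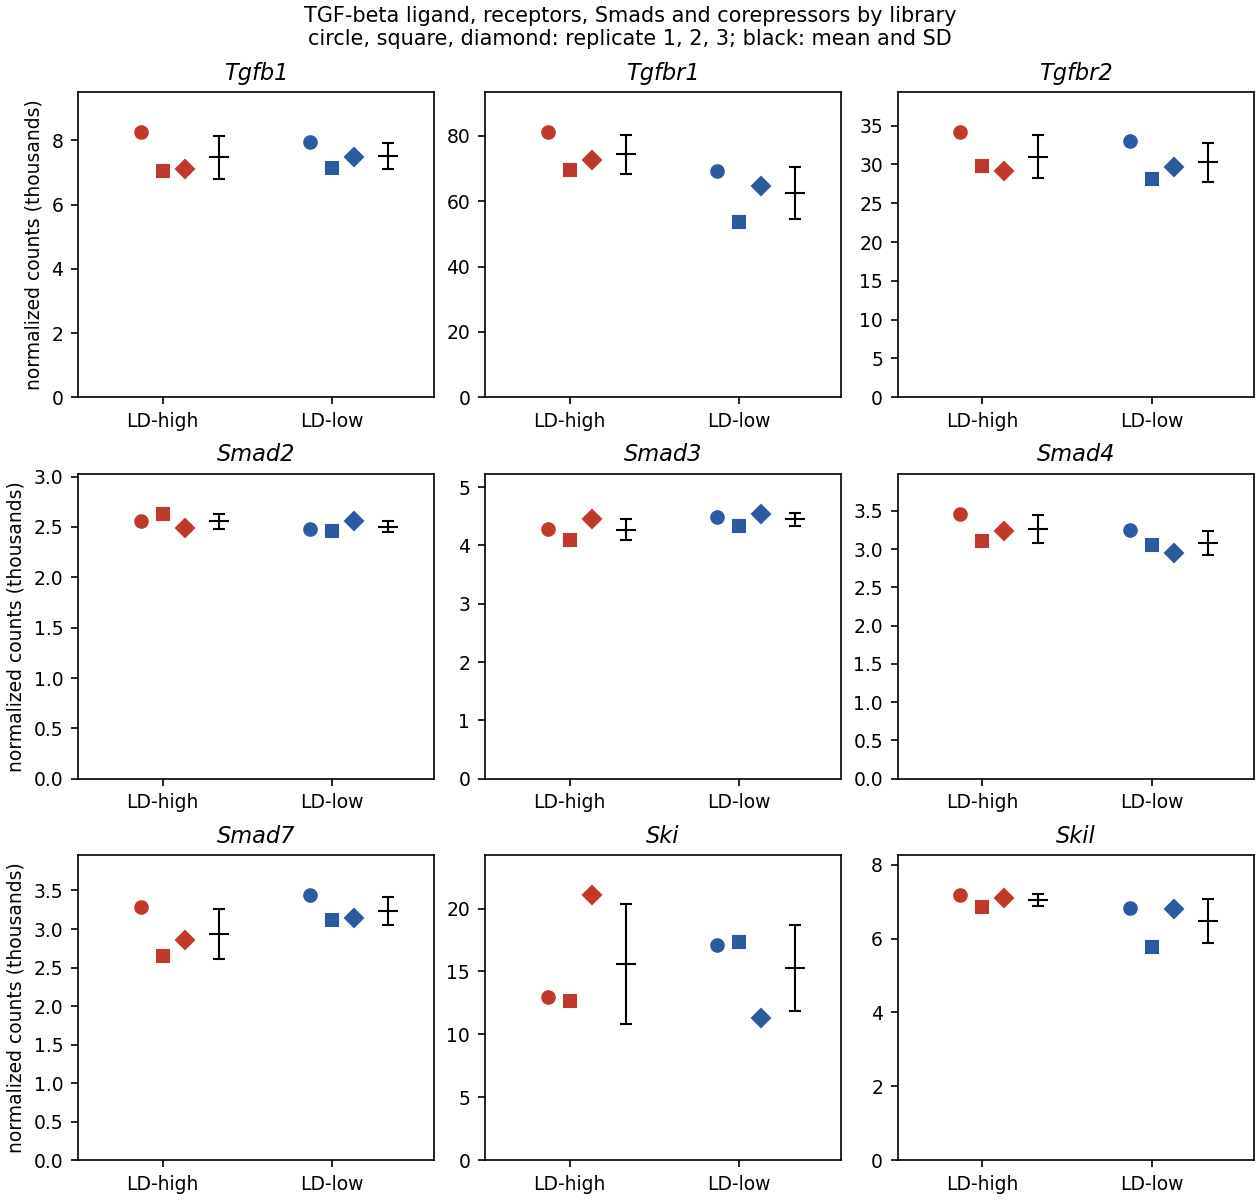
Normalized counts (vertical axes from 0, in units of 1000) of the 9 genes in LD-high (red) and LD-low (blue) libraries, with circles, squares and diamonds for replicates 1, 2 and 3 and the mean and SD in black. Tgfbr1 and Skil have all LD-high points above all LD-low points, and Ski spreads widely within both groups.

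Smad2 and Smad3, the Smads that the TGF-beta receptor activates, had the smallest spread within groups of the 9 genes. Smad2 had 2555, 2632 and 2484 normalized counts in LD-high replicates 1, 2 and 3, against 2480, 2463 and 2564 in LD-low replicates 1, 2 and 3. Its log2 change was 0.03 ± 0.07, with a 95% interval of -0.12 to 0.18 (adjusted p 0.852, limma). Smad3 (chromosome 9, 63494574 to 63605801) had 4275, 4091 and 4450 normalized counts in LD-high replicates 1, 2 and 3, against 4480, 4329 and 4545 in LD-low replicates 1, 2 and 3. For both genes the groups overlapped. The log2 change of Smad3 was -0.06 ± 0.07, with a 95% interval of -0.20 to 0.08 (adjusted p 0.662, limma). The spread of Smad2 within groups, an SD of 0.04 on the log2 scale, was larger than that of 3.36% of the 4696 tested genes whose mean reached 1000 normalized counts, and the SD of Smad3, 0.05, exceeded that of 10.1%. Smad3 divided by Smad2 was 1.67, 1.55 and 1.79 in LD-high replicates 1, 2 and 3, against 1.81, 1.76 and 1.77 in LD-low replicates 1, 2 and 3. The groups overlapped, and the exact permutation test gave a 2-sided p of 0.3 (0.4 when adjusted over the 4 ratios).

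Smad4, the common partner Smad, had 3462, 3100 and 3234 normalized counts in LD-high replicates 1, 2 and 3, against 3251, 3054 and 2944 in LD-low replicates 1, 2 and 3. Its log2 change was 0.08 ± 0.07, with a 95% interval of -0.07 to 0.24 (adjusted p 0.560, limma). Smad7, the inhibitory Smad whose gene TGF-beta itself induces, had 3288, 2653 and 2863 normalized counts in LD-high replicates 1, 2 and 3, against 3440, 3111 and 3138 in LD-low replicates 1, 2 and 3. Smad7 had the lowest log2 change of the 9 genes, -0.14 ± 0.08, with a 95% interval of -0.32 to 0.04 (adjusted p 0.364, limma). Each gene taken alone overlapped between the groups, with LD-high replicate 1 the highest LD-high library for both.

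Set against each other, they did not overlap. Smad7 divided by Smad4 was 0.950, 0.856 and 0.885 in LD-high replicates 1, 2 and 3, against 1.06, 1.02 and 1.07 in LD-low replicates 1, 2 and 3. Like the receptor ratio, this one is not divided by gene length, so values above or below 1 do not rank the genes. Per kilobase of exonic length Smad7 stayed below Smad4 in both groups, with a highest library of 761 against a lowest of 793. The difference of the log2 ratio between the groups was -0.22, with means of -0.16 ± 0.08 in LD-high and 0.07 ± 0.03 in LD-low libraries (SD, n = 3 each). The exact permutation test again gave 0.1, the smallest p possible, and 0.2 when adjusted over the 4 ratios. Here too the share of other gene pairs without overlap was not computed. Smad2, Smad4 and Smad7 all lie on chromosome 18.

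**Figure D2:**
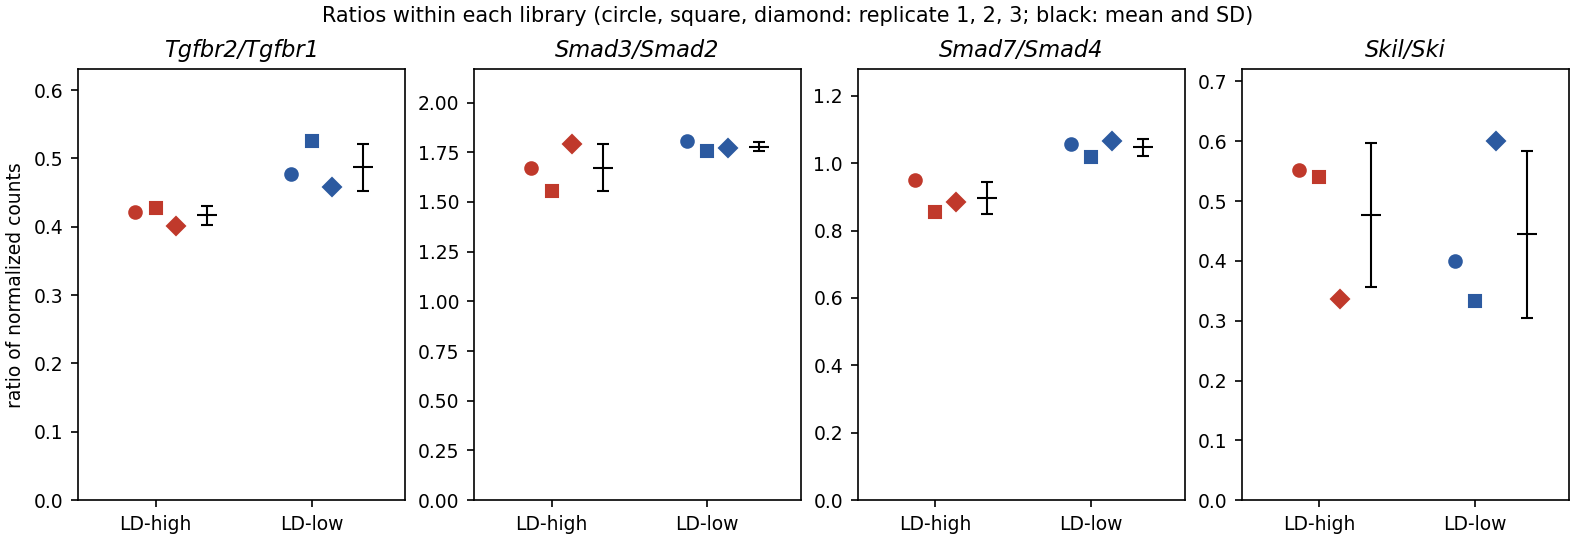
Ratios of normalized counts within each library (vertical axes from 0) for 4 gene pairs, in LD-high (red) and LD-low (blue) libraries, with circles, squares and diamonds for replicates 1, 2 and 3 and the mean and SD in black. The groups do not overlap for Tgfbr2/Tgfbr1 and Smad7/Smad4, and overlap for Smad3/Smad2 and Skil/Ski.

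The corepressor genes Ski and Skil are related in sequence. Skil (chromosome 3, 30993980 to 31021499) had 7179, 6850 and 7101 normalized counts in LD-high replicates 1, 2 and 3, against 6822, 5778 and 6802 in LD-low replicates 1, 2 and 3. All LD-high libraries lay above all LD-low libraries, but LD-high replicate 2 and LD-low replicate 1 were nearly level. Its log2 change was 0.13 ± 0.07, with a 95% interval of -0.03 to 0.28 (adjusted p 0.359, limma), and without LD-low replicate 2 it was 0.05.

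Ski (chromosome 4, 154528184 to 154596701) had 13003, 12666 and 21067 normalized counts in LD-high replicates 1, 2 and 3, against 17090, 17350 and 11330 in LD-low replicates 1, 2 and 3. The highest value was 1.86 times the lowest, both in replicates numbered 3 but of opposite fractions, and the groups overlapped widely. The means were 15579 ± 4756 in LD-high and 15257 ± 3403 in LD-low libraries (SD, n = 3 each), with a log2 change of 0.02 ± 0.17 and a 95% interval of -0.35 to 0.38 (adjusted p 0.974, limma). The SD of Ski within groups was 0.38 on the log2 scale, above that of 99.8% of the same 4696 genes. The sign turned when either library numbered 3 was left out: without LD-high replicate 3 the log2 change was -0.22 and without LD-low replicate 3 it was -0.19. Skil divided by Ski ran from 0.337 to 0.552 in LD-high libraries and from 0.333 to 0.600 in LD-low libraries, with an exact permutation p of 0.9.

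Over the 6 libraries, the genes whose log2 values were most like Ski's were Zbtb1 (Pearson's r 0.989) and Cables1 (0.975), out of 10190 genes compared. Zbtb1 had 2533, 2506 and 2847 normalized counts in LD-high replicates 1, 2 and 3, against 2669, 2670 and 2466 in LD-low replicates 1, 2 and 3. It thus ordered the libraries much as Ski did. Its range was far narrower. In all, 46 genes had an r above 0.9 with Ski, the fewest among the 9 genes, for which the count ran from 46 to 205. The 6 points share their library and size factor with every gene, so these values are a description.

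**Figure D3:**
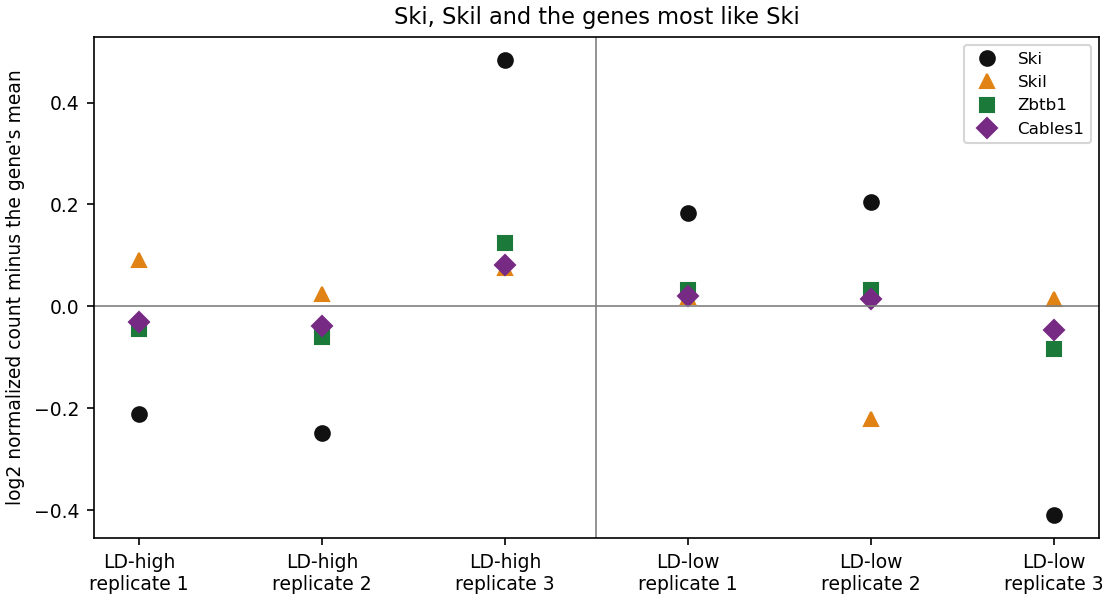
Log2 normalized count minus the gene's own mean over the 6 libraries (vertical axis) for Ski, Skil, Zbtb1 and Cables1 in each library (LD-high left, LD-low right). Ski is highest in LD-high replicate 3 and lowest in LD-low replicate 3, Zbtb1 and Cables1 follow it with smaller swings, and Skil does not.

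For the receptors, the most similar genes were Pdcl and G3bp2 for Tgfbr1 (r 0.996 and 0.995) and Uggt1 and Heatr1 for Tgfbr2 (0.984 and 0.983). For Smad4 they were Pld1 and Emc1 (0.996 and 0.992), and for Smad7 they were Trib1 and Slc11a1 (0.996 and 0.994). Those of Tgfb1 were Clec4a2 and Rttn (0.995 and 0.984), and those of Skil were Rbpms and 6530402F18Rik (0.994 and 0.980). Those of Smad2 were Rps26 and Clcn6 (0.978 and 0.972), and those of Smad3 were Tpst1 and Zfp235 (0.990 and 0.983). The likeness takes in both the groups and the spread within them. G3bp2 had 7642, 7050 and 7255 normalized counts in LD-high replicates 1, 2 and 3, against 6942, 5788 and 6594 in LD-low replicates 1, 2 and 3, the same separation as Tgfbr1. Trib1 had 2591, 1818 and 2072 in LD-high replicates 1, 2 and 3, against 2878, 2320 and 2404 in LD-low replicates 1, 2 and 3, with LD-high replicate 1 above all but 1 of the LD-low libraries, as for Smad7.

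In limma, 0 of the 9 genes passed, against 3.36% of the 11624 tested genes. Of all tested genes, 178 (1.53%) were higher and 212 (1.82%) lower in LD-high libraries, against 118 and 233 with equal library totals and 410 and 188 with a correction for transcript length and GC content. EdgeR and DESeq2 on the recovered reads also called 0 of the 9 genes. At an unadjusted p under 0.05, 1 of the 9 was counted, Tgfbr1, against 19.8% of all tested genes. The LD-high libraries lay wholly above the LD-low libraries for 2 of the 9 genes, 22.2%, and for 12.7% of all tested genes, while 0 of the 9 lay wholly below, against 11.7%, or 24.3% of all tested genes in either direction. With 9 genes these shares stood near the background. The log2 changes ran from -0.14 to 0.26, with 6 above and 3 below 0 and a median of 0.03, against -0.01 for all tested genes. The sign of the changes of Ski, Smad2 and Tgfbr2 turned with equal library totals or quantile normalization, and that of Tgfb1 with the length and GC correction.

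**Figure D4:**
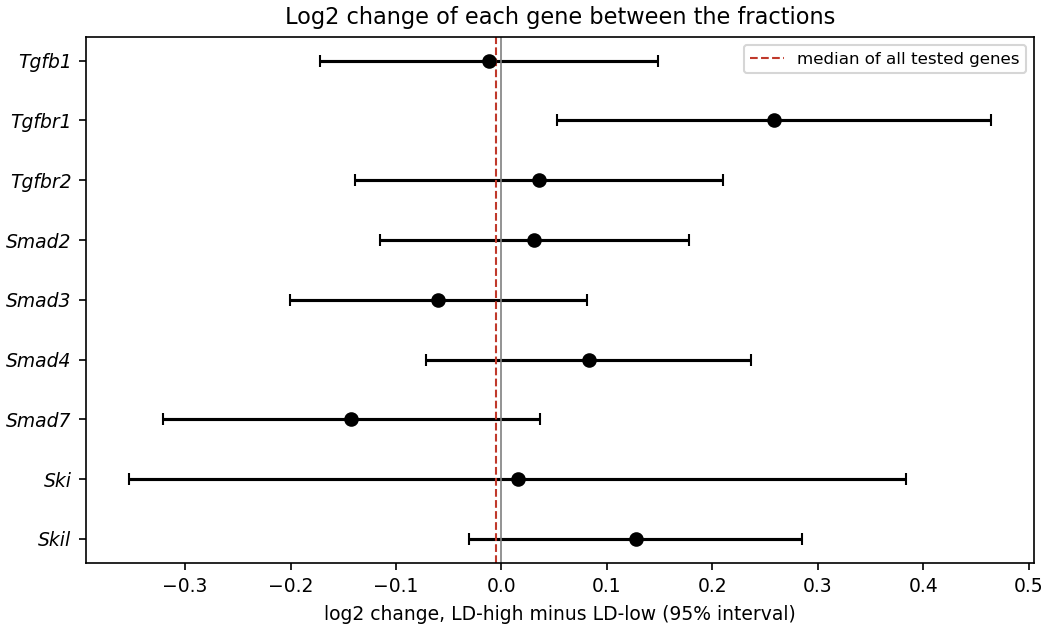
Log2 change of each gene, LD-high minus LD-low (horizontal axis), with its 95% interval from limma. The interval of Tgfbr1 lies above 0, the other 8 include 0, and the dashed line marks the median of all tested genes.

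Per kilobase of exonic length, Tgfbr1 was the most abundant of the 9 genes and the 76th of 12853 genes with a known length. It had 11388 ± 913 normalized counts per kb in LD-high and 9556 ± 1229 in LD-low libraries (SD, n = 3 each), and its lowest library, 8193, stood above the highest of every other member. Tgfbr2 came next, with 3835 ± 338 per kb in LD-high and 3741 ± 310 in LD-low libraries. Tgfb1 and Ski followed, with 2753 to 3227 and 2037 to 3788 per kb over the 6 libraries. Ski's range overlapped those of both Tgfb1 and Tgfbr2, and by exonic length Tgfbr2 stayed above Tgfb1. By the length of the longest transcript Tgfb1 averaged 3448 and Tgfbr2 3788 per kb over the 6 libraries. Far below stood Smad4, Smad3, Smad2, Skil and Smad7, with means of 855, 787, 713, 697 and 682 per kb. Each of these neighbours overlapped the next in its range, and with the length of the longest transcript in place of the exonic length Skil moved to the top of them, with 1006 per kb. The median of all genes was 134 per kb.

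Genes that hold or free latent TGF-beta were mostly not changed beyond the test. Of 14 genes on this list, 8 were listed and 6 tested, of which 1 fell, 0 rose and 5 missed the threshold. Their median was 0.02 (log2 change), against -0.01 for all tested genes. The gene that fell was Mmp14, which encodes a membrane-bound matrix metalloproteinase. It had 1298, 1428 and 1444 normalized counts in LD-high replicates 1, 2 and 3, against 2000, 1780 and 1845 in LD-low replicates 1, 2 and 3, with no overlap, and fell by 0.43 ± 0.08 on the log2 scale (adjusted p 0.0147, limma). Across all tested genes 1.82% passed downward. The latent TGF-beta binding protein gene Ltbp3 averaged 96.2 ± 9.2 normalized counts in LD-high and 59.2 ± 14.8 in LD-low libraries (SD, n = 3 each). Its log2 change, 0.72 ± 0.26, did not pass (adjusted p 0.140, limma). The integrin gene Itgav, whose product helps to free latent TGF-beta, had a log2 change of 0.18 ± 0.10 (adjusted p 0.333). Tgfb2 and Itgb8 stayed under 4 normalized counts in every library and were not tested, with highest values of 3.72 and 3.25.

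Of 12 co-receptors and other receptors of the family, 9 were tested, of which 1 fell, 0 rose and 8 did not pass, and 8 of the 9 lay below 0 with a median of -0.14. Among all 11624 tested genes, 1.82% passed downward and 5962 lay below 0, with a median of -0.01. Acvr2b, a type II receptor gene for activins, had 760, 720 and 710 normalized counts in LD-high replicates 1, 2 and 3, against 926, 1039 and 905 in LD-low replicates 1, 2 and 3. It fell by 0.39 ± 0.09 on the log2 scale (adjusted p 0.0375, limma). The BMP receptor genes Bmpr1a and Acvr1 had log2 changes of -0.23 ± 0.12 and -0.15 ± 0.09 and did not pass. Of the BMP branch and inhibitory Smads, Smad1, Smad5 and Smad6 were tested and 0 of 3 passed in limma, edgeR or DESeq2 or at an unadjusted p under 0.05. Smad6, an inhibitory Smad like Smad7, averaged 126 ± 18 normalized counts in LD-high and 156 ± 13 in LD-low libraries (SD, n = 3 each), and its log2 change was -0.31 ± 0.19. Smad1 and Smad5 had log2 changes of 0.11 ± 0.07 and 0.11 ± 0.13.

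Among 17 genes for the turnover of receptors and Smads, 0 passed in limma, edgeR or DESeq2, and 2 had an unadjusted p under 0.05, against 19.8% of all tested genes. Those were Fkbp1a, whose product binds the resting type I receptor, with a log2 change of 0.20 ± 0.07, and Smurf1, a ubiquitin ligase that Smad7 brings to the receptor, with 0.23 ± 0.08. Strap, a partner of Smad7 at the receptor, had 0.13 ± 0.07. The list's median was 0.04.

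Among 16 tested nuclear partners of Smads, 0 passed in limma or edgeR, 1 passed in DESeq2, where 729 of all 11624 genes did, and 5 had an unadjusted p under 0.05, against 19.8% of all tested genes. The median was -0.03. Zeb1 and Zeb2, zinc finger transcription factors that bind Smads, differed by -0.56 ± 0.16 (adjusted p 0.0652) and by -0.19 ± 0.07 (adjusted p 0.161) on the log2 scale. Neither passed in limma with all libraries and no block for the replicate number. With that block, a pairing that the labels do not state, both passed (adjusted p 0.0176 and 0.0434, limma). Zeb1 was the gene that passed in DESeq2 (adjusted p 0.0279), and in limma it passed without LD-low replicate 1 (adjusted p 0.0387). Cbfb, the partner of the Runx factors, had 0.21 ± 0.08. On the list of the Smad-independent branch through the kinase TAK1, 0 of 10 genes passed in limma, edgeR or DESeq2 or at an unadjusted p under 0.05, with a median of -0.09. Traf6, Map2k6 and Tab2, which lie upstream and downstream of TAK1 or beside it, had log2 changes of 0.17 ± 0.10, -0.27 ± 0.16 and -0.20 ± 0.12. On a list of 16 BMP and activin ligands, antagonists and other extracellular factors, only Bmp1 and Twsg1 were tested. Their log2 changes were -0.44 ± 0.21 and 0.12 ± 0.13. Of these 2, 0 passed in limma, edgeR or DESeq2, while 1 had an unadjusted p under 0.05.

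Genes on a list of general TGF-beta targets, known to respond to it in various cell types, held 3 of the 5 falls found on the wider lists. Of 16 tested genes on this list, 3 fell, 0 rose and 13 did not pass, and 14 lay below 0 with a median of -0.26. Of all tested genes 1.82% passed downward and 1.53% upward, and 5962 of 11624 lay below 0 with a median of -0.01. The list was chosen with earlier results of these data known, so the comparison is a description and not a test of the list. Cdkn1a, which encodes the cell cycle inhibitor p21, had 218, 223 and 311 normalized counts in LD-high replicates 1, 2 and 3, against 460, 575 and 505 in LD-low replicates 1, 2 and 3. It fell by 1.05 ± 0.15 on the log2 scale (adjusted p 0.0030, limma). Bhlhe40, a transcriptional repressor gene, had 51.4, 39.2 and 30.1 normalized counts in LD-high replicates 1, 2 and 3, against 104, 82.3 and 85.5 in LD-low replicates 1, 2 and 3, and fell by 1.18 ± 0.28 (adjusted p 0.0359, limma). Tgfbi, a secreted matrix protein gene, had 2168, 2098 and 2110 in LD-high replicates 1, 2 and 3, against 2640, 2637 and 2524 in LD-low replicates 1, 2 and 3, and fell by 0.29 ± 0.07 (adjusted p 0.0347, limma). All 3 genes also respond to signals other than TGF-beta. The targets Smad7 and Skil, counted with the 9 genes, had log2 changes of -0.14 and 0.13.

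The neutrophil markers, at 0 reads in LD-high and at 1220 to 4523 normalized counts in LD-low libraries, lay lower in LD-high libraries as did Mmp14, Acvr2b, Cdkn1a, Bhlhe40 and Tgfbi, and their part in these falls was not tested. LD-low replicate 3 held the most neutrophil marker counts. Among the LD-low libraries it had the lowest Tgfbi and Acvr2b and the middle value of Mmp14, Cdkn1a and Bhlhe40. Without it the log2 changes were -1.05 for Cdkn1a, -0.44 for Mmp14, -0.31 for Tgfbi, -0.43 for Acvr2b and -1.21 for Bhlhe40. LD-low replicates 1 and 2 still held 1220 and 1583 neutrophil marker counts, so leaving out replicate 3 is no test of the part of neutrophils. In that fit, with 1 library fewer, 52 of all genes passed against 390, Cdkn1a among them (adjusted p 0.0227, limma). The adjusted p was then 0.0645 for Mmp14, 0.101 for Tgfbi, 0.102 for Acvr2b and 0.123 for Bhlhe40. With each library left out in turn, Cdkn1a passed in 6 of 6 fits and Mmp14 in 5, whereas Bhlhe40 passed in 1, without LD-high replicate 1, and Tgfbi and Acvr2b in 0, with adjusted p values of 0.0571 to 0.133 and 0.0542 to 0.169 (limma). Without the mean-variance trend 0 of the 5 passed, with adjusted p values of 0.144 to 0.179. Quantile normalization ended the calls of Acvr2b (adjusted p 0.0582) and Bhlhe40 (0.0787), and the length and GC correction those of Acvr2b (0.0785) and Tgfbi (0.0563).

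**Figure D5:**
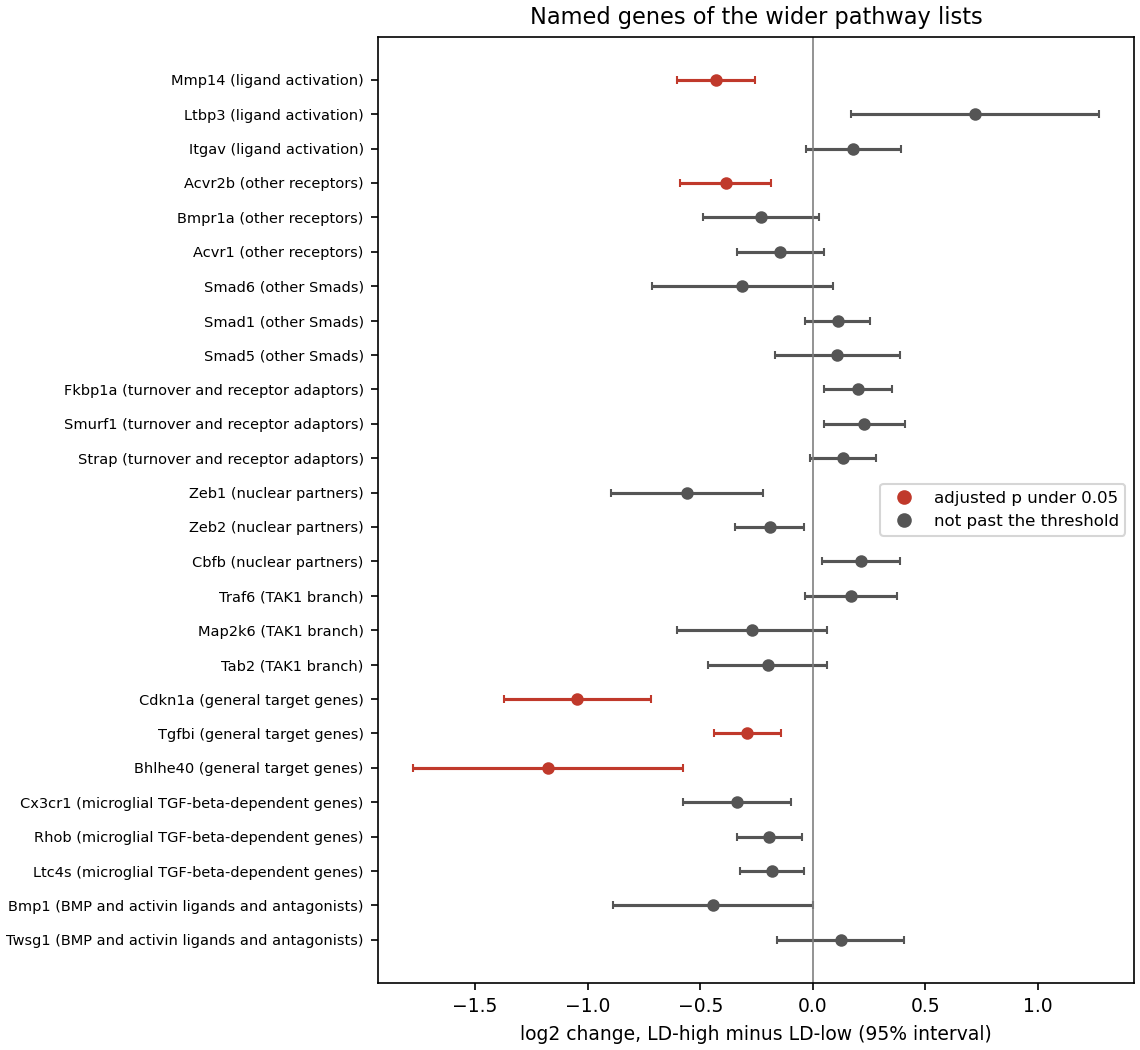
Log2 change, LD-high minus LD-low (horizontal axis), with 95% intervals from limma for the named genes of the wider pathway lists, in red where the adjusted p is under 0.05. The 5 red genes, Mmp14, Acvr2b, Cdkn1a, Tgfbi and Bhlhe40, all lie below 0.

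The microglial signature genes that depend on TGF-beta were all tested, and of the 20 genes 6 lay above and 14 below 0. In limma and edgeR 0 passed, 1 passed in DESeq2 and 3 had an unadjusted p under 0.05, against 19.8% of all tested genes, with a median of -0.01. The chemokine receptor gene Cx3cr1 averaged 113674 ± 21011 normalized counts in LD-high and 142107 ± 8803 in LD-low libraries (SD, n = 3 each), and its log2 change was -0.34 ± 0.11 (adjusted p 0.115 in limma and 0.0306 in DESeq2). In limma Cx3cr1 passed with equal library totals (adjusted p 0.0316), with quantile normalization (0.0428) and without LD-high replicate 1 (0.0276). Rhob, a small GTPase gene, and Ltc4s, which encodes leukotriene C4 synthase, gave log2 differences of -0.19 ± 0.07 (adjusted p 0.130) and -0.18 ± 0.07 (adjusted p 0.149). Rhob passed with equal library totals (adjusted p 0.0464, limma) and with quantile normalization (0.0449).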

How the data were processed

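RNA was measured in 3 LD-high and 3 LD-low libraries. Per the submitters' processing notes, STAR 2.5.1b aligned the reads to mm9 and counted them per gene, after FastQC 0.11.4, and DESeq2 was run. The annotation and strand setting used are not stated there. The deposited signal is a count per gene divided by 1 size factor per library by the authors: 100% of values were whole multiples of 1 step per library (tolerance 0.01 reads), which gave back 15895576 to 38489448 reads. Of 14148 genes, 12853 matched GENCODE vM1 on NCBIM37 (mm9), which gave coordinates, lengths and GC contents. No other annotated gene overlapped the 9 genes.

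The 11624 genes that reached 10 in 3 or more libraries, all 9 genes among them, entered limma 3.58.1 (R 4.3.3, mean-variance trend) on log2(normalized count + 1), a scale that understates changes of low genes. P-values were 2-sided, adjusted by Benjamini-Hochberg over all tested genes, with a threshold of 0.05. The method was tested on simulated data. Alternatives were pseudocounts of 0.5 and 5, a filter of 50 or none, TMM factors, equal totals, quantile normalization, no trend, edgeR 4.0.16 and DESeq2 1.42.0 on recovered reads, a length and GC correction, each library left out, and the replicate number as a block. Named list genes are those past the threshold and the 3 with the smallest p per list. Genes most like a member are the 2 with the highest Pearson's r among tested genes averaging 50 or more. Genes and lists were chosen with earlier results of these data known. No label says that the pools of a group came from different mice, so p-values measure only how these samples vary, which may be technical. Recovered reads gave 377 calls over all genes in edgeR and 729 in DESeq2. Smart-seq libraries do not mark strand.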

Additional observations from a re-analysis of the deposited data

How the results depend on the processing

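Over 19 alternatives, Tgfbr1, Skil and Smad4 stayed above 0 and Smad3 and Smad7 below 0. The other 4 genes, 0 of which were called, changed sign in some. With equal library totals the log2 change was -0.0073 for Tgfbr2, -0.011 for Smad2 and -0.027 for Ski. With quantile normalization it was -0.026 for Tgfbr2, -0.0080 for Smad2 and -0.062 for Ski. With the length and GC correction Tgfb1 had 0.069, also with the replicate block. With 1 library left out, the log2 change ran from -0.086 to 0.029 for Tgfb1, from -0.036 to 0.10 for Tgfbr2, from -0.22 to 0.14 for Ski, from -0.026 to 0.28 for Smad5 and from -0.020 to 0.25 for Twsg1. The Skil/Ski difference then ran from -0.074 to 0.35. The cause was not tested.

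The count of called genes, 390, was 252 with quantile normalization, 15 without the trend, 729 with DESeq2, 598 with the length and GC correction, and 52 to 421 with 1 library left out. The count of called genes on the wider lists, 5, was 0 without the trend, 3 with the length and GC correction, 7 with equal totals, 6 with quantile normalization and 1 to 4 with 1 library left out. These are not always the same genes: Zeb1, Cx3cr1 and Rhob passed in some. Fits without a library have fewer samples.

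Equal replicate numbers are not stated to pair the libraries: deviations from group means correlated at 0.161, 0.132 and 0.064 for numbers 1, 2 and 3, and each library correlated best with its own number, a hint from the data. With the replicate block 1090 genes, 1 of the 9 genes and 11 list genes were called, and 1432, 1 and 12 with the length and GC correction as well. The gene of the 9 was Tgfbr1 (adjusted p 0.0081 and 0.0038, limma). Without that correction the block also called Cx3cr1 (0.0074), Zeb1 (0.0176), Rhob (0.0384) and Zeb2 (0.0434), all lower in LD-high libraries. It also called Smurf1 (0.0332), which was higher. With the correction as well, Itgav (0.0094), Smurf1 (0.0134), Fkbp1a (0.0186) and Cbfb (0.0437) were called higher, and Cx3cr1 (0.0088) and Zeb1 (0.0196) lower. For Tgfbr2/Tgfbr1 and Smad7/Smad4 the paired exact sign-flip p was 0.25, the smallest 3 pairs allow. All ratio differences but Skil/Ski stayed below 0 with each library left out.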
